A study of Homo sapiens with 6 samples.

Results

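The germinal centre B cell program, as described here, comprises 34 genes that mark or maintain B cells in the germinal centre: transcription factors, chromatin regulators, signalling genes and surface or cytoplasmic markers. The members were named as gene symbols and taken from the count table by Entrez gene identifier. All 34 were found among its 23459 rows, and 32 of them were among the 12079 genes with enough counts to be tested. The cells were Raji, an established human line from a Burkitt's lymphoma, a tumour of germinal centre B cells. The 3 IRF4-overexpressing libraries (IRF4OE) came from cells infected with a lentivirus that carried a human IRF4 cDNA, and the 3 control libraries (Ctrl) from cells infected with the empty vector. All cells had 5 days of infection and then 7 days of selection in puromycin at 3 µg/ml, so the controls carry an integrated vector and the drug treatment too. The labels do not state separate infections or cultures, so p-values measure only how far these 6 libraries scatter, which may be technical variation. One lymphoma line stands for germinal centre B cells here, and the promoter that drives the cDNA is not given in the sources used here.

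In the germinal centre, activated B cells divide, mutate their antibody genes and compete for help from T cells. The repressor BCL6 holds this state by silencing genes of activation, migration, DNA damage arrest and plasma cell differentiation, with corepressors and chromatin enzymes as partners. IRF4 is low in most germinal centre B cells and high in plasma cells, and in B cells it is known both to bind the BCL6 gene and to activate PRDM1, which encodes the repressor that ends the B cell program. The wider study concerns the octamer-binding Oct factors and their coactivator OBF1 in this program.

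Some member promoters are shown because they hold the letters of motifs tied to these regulators. Promoters, from 250 bases before to 50 after the start site, were found for 31 of the 34 members in RefSeq (GRCh38.p14), 69 promoters in all. The octamer ATGCAAAT, searched on both strands, was in 4 of these 69 promoters (5.80%) and in 623 of all 35116 promoters (1.77%). The 4 belong to the genes MEF2B, MEF2C, SERPINA9 and VPREB3, and the 250 bases before each start site follow, 5′ to 3′ on the gene's strand, with the octamer or its reverse complement in capitals. They lie on the minus strand at chr19:19170264-19170513 (MEF2B), chr5:88824345-88824594 (MEF2C, at 1 of its annotated starts), chr14:94476198-94476447 (SERPINA9) and chr22:23754426-23754675 (VPREB3).
MEF2B: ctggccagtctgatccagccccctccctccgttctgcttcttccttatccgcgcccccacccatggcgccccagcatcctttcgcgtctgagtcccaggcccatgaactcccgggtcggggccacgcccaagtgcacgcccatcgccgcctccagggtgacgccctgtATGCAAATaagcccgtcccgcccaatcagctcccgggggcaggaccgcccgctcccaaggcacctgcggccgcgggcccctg
MEF2C: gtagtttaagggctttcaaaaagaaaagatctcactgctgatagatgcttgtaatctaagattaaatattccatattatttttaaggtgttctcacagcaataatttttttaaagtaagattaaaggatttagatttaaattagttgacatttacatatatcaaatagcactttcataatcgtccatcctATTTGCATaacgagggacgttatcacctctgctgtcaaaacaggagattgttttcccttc
SERPINA9: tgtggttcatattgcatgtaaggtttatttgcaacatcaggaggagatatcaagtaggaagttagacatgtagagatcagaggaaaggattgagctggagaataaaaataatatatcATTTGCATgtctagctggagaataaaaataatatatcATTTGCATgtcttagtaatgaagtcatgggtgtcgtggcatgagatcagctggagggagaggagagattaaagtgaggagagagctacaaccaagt
VPREB3: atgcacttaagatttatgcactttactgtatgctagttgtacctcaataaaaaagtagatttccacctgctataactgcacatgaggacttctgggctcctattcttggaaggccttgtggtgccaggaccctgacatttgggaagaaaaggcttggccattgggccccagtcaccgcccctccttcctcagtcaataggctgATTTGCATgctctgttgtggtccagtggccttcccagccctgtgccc
The octamer began 82 bases before the start site in MEF2B, 60 in MEF2C, 133 and 96 in SERPINA9 and 47 in VPREB3. It is a match of letters and no evidence of binding.

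The BCL6-type motif TTCNNNGAA, whose letters read the same on both strands, was in 9 of the 69 member promoters (13.0%) and in 7.66% of all promoters. BCL6 itself held 4 matches, more than any other member promoter. The first 3 of them lie in the stretch from 100 bases before to 30 after its start site (chr3:187745439-187745568, minus strand), shown with the matches in capitals.
BCL6: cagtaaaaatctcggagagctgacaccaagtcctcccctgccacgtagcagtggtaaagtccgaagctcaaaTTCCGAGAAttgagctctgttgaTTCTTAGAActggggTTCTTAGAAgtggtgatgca
Counting the first transcribed base as 1, with no position 0, they begin at -28, -5 and 11, and the other one at 37. The interferon-type motif GAAANNGAA was in 10 of the 69 member promoters (14.5%) and 8.11% of all promoters, and GGAANNGAA, a pairing of ETS and IRF half-sites, in 5 (7.25%) and 7.79%. These last motifs differ at their second letter, so 1 stretch on 1 strand cannot match both. Members with several annotated starts count once per promoter, and TCF4 alone holds 7 of the 12 interferon-type matches.

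IRF4 was raised in every IRF4OE library. It had 5162, 4462 and 6054 counts in IRF4OE replicates 1, 2 and 3, against 41, 37 and 50 in Ctrl replicates 1, 2 and 3, with reads of the cDNA and the cell's own gene counted together. In CPM, which divide counts by the TMM-scaled library size, it was at 132 ± 15.8 in IRF4OE and 1.25 ± 0.203 in Ctrl (SD, n = 3 each; log2 fold change 6.72 with SE 0.18; edgeR adjusted p = 3.79e-05). Totals were 33588248 to 46210702 counts in IRF4OE and 27681979 to 41510523 in Ctrl libraries. B cell markers (10 of 10 detected) summed to 4575 to 5676 CPM in IRF4OE and 4789 to 5718 CPM in Ctrl. Markers of T and NK cells summed to 0.497 to 0.567 CPM in IRF4OE and 0.186 to 0.465 CPM in Ctrl, and 3 of their 9 measured genes were at 0 in all libraries. Myeloid markers (3 of 10 at 0) summed to 5.64 to 9.16 CPM in IRF4OE and 3.06 to 3.31 in Ctrl, epithelial and kidney markers (5 of 10 at 0) to 4.68 to 7.21 in IRF4OE and 3.09 to 3.53 in Ctrl, and mesenchymal markers (3 of 10 at 0) to 61.1 to 66.6 in IRF4OE and 45.1 to 57.2 in Ctrl. The last 4 sums were higher in every IRF4OE than in any Ctrl library, and their part in the results was not tested. In bulk RNA, fewer cells of a type and less RNA per cell cannot be told apart.

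The libraries differed within both groups along a shared axis, to which 70.7% of the within-group variance of log2 CPM belonged. IRF4OE replicates 2 and 3 lay on its side A with Ctrl replicate 1, and IRF4OE replicate 1 lay on its side B with Ctrl replicates 2 and 3. The labels name no batch, and since the sides come from the counts themselves, a fit with a term for the side gives p-values that are too small. What the axis stands for was not tested. The axis held a median of 89.0% of the within-group variance of the tested members, against 75.5% over all genes tested. For 21 of the 32 members the difference between the sides was larger than the difference between the groups, as it was for 6756 of the 12079 genes.

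Of the 32 tested germinal centre genes, 1 changed in IRF4OE cells. SUGCT, which encodes a mitochondrial CoA transferase and is used as a germinal centre marker in lymphoma classification, rose, and 0 members fell by edgeR's quasi-likelihood test. Over all genes tested, 2.98% were called higher and 0.182% lower. The members' share of 1 in 32 (3.12%) was close to the 3.16% of all genes called in either direction. At an unadjusted p under 0.05, 4 members were higher and 4 lower against 11.3% and 8.18% of all genes. DESeq2 (4.78% of all genes higher, 1.45% lower) and limma-voom (2.81% higher, 0.182% lower) each called 1 member higher and 0 lower. Estimates were more often negative: 12 members had a positive and 20 a negative log2 fold change, with a median of -0.19, against 0.01 over all genes tested. The median differed between fits and was -0.07 with a term for the side. Without IRF4OE replicate 1, 2 or 3 the median was -0.32, -0.06 and -0.07. Without Ctrl replicate 1, 2 or 3 it was -0.21, -0.15 and -0.10. It was -0.13 within side A and -0.05 within side B. In 5 members all IRF4OE libraries lay above all Ctrl libraries (BACH2, TCF4, GCSAM, SERPINA9 and SUGCT) and in 3 they lay below (GNA13, EZH2 and BCL7A). Of all genes tested, 13.5% lay above and 11.9% below in this way.

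**Figure D1:**
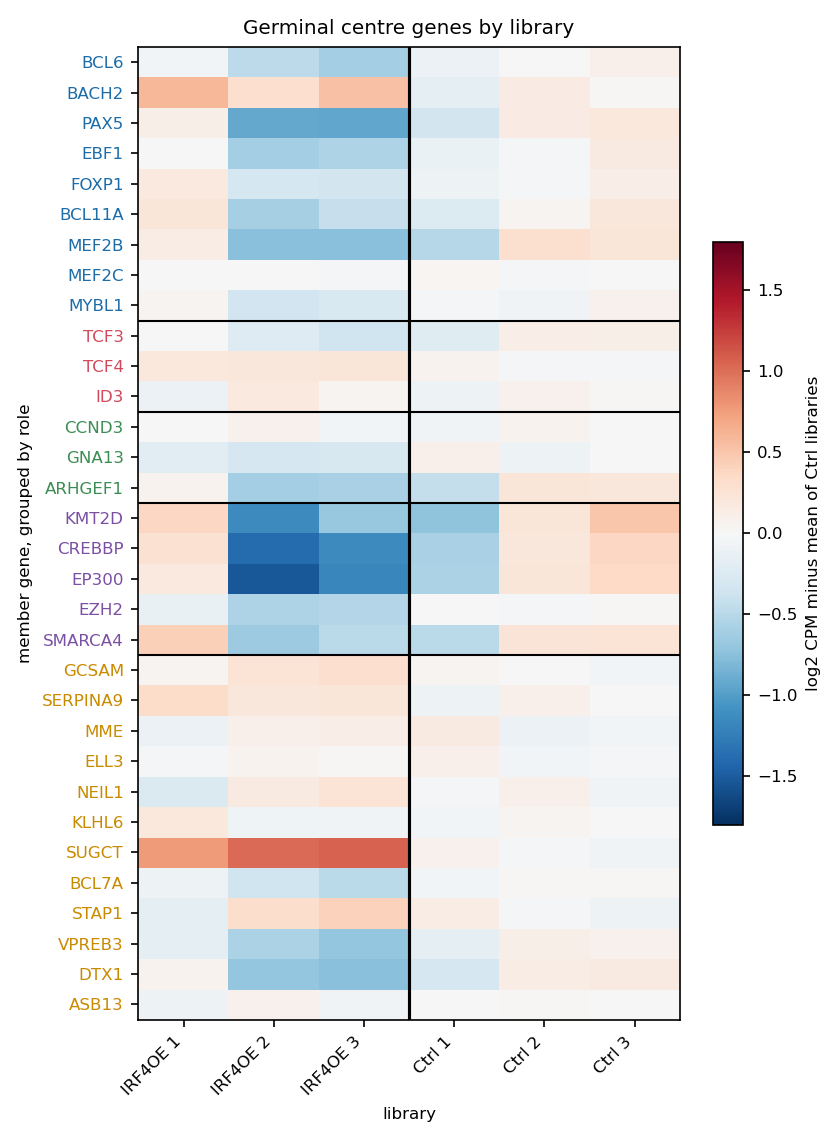
Level of each of the 32 tested members in each library (columns; IRF4OE left, Ctrl right), as log2 CPM minus the mean of the Ctrl libraries, with rows grouped by role. SUGCT and BACH2 are above the Ctrl mean in all 3 IRF4OE libraries, while the chromatin regulators KMT2D, CREBBP and EP300 are low in IRF4OE replicates 2 and 3 and in Ctrl replicate 1.

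SUGCT had 3.66, 4.35 and 4.47 CPM in IRF4OE replicates 1, 2 and 3, against 2.27, 2.12 and 2.05 CPM in Ctrl replicates 1, 2 and 3. The lowest IRF4OE library was above the highest Ctrl library. These levels rest on 126, 161 and 216 counts in IRF4OE and 91, 57 and 75 in Ctrl. The mean was 4.16 ± 0.437 CPM in IRF4OE and 2.15 ± 0.109 CPM in Ctrl (SD, n = 3 each), or a log2 fold change of 0.96 with SE 0.14 (edgeR adjusted p = 0.0162). The difference was 0.96 on side A and 0.81 on side B. Its direction held in all fits, but the call did not. Without IRF4OE replicate 2 or 3 the edgeR adjusted p was 0.0656 and 0.0697, and without Ctrl replicate 1, 2 or 3 it was 0.0668, 0.0826 and 0.0942, at log2 fold changes of 0.90 to 0.99.

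Among the core transcription factors, BCL6, the repressor that defines the germinal centre B cell, had 263, 197 and 179 CPM in IRF4OE replicates 1, 2 and 3, against 253, 274 and 291 CPM in Ctrl replicates 1, 2 and 3. IRF4OE replicate 1 lay within the range of the Ctrl libraries, and the other IRF4OE libraries lay below it. The means were 213 ± 44.5 CPM in IRF4OE and 273 ± 19.0 CPM in Ctrl (SD, n = 3 each). The log2 fold change of -0.36 had a 95% interval of -0.73 to 0.01 (edgeR adjusted p = 0.265). On side A the difference was -0.43 and on side B -0.10.

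BACH2 encodes a repressor that delays plasma cell differentiation by binding PRDM1. It had 10.4, 8.40 and 9.88 CPM in IRF4OE replicates 1, 2 and 3, against 6.05, 7.59 and 6.98 CPM in Ctrl replicates 1, 2 and 3, with no overlap. The log2 fold change was 0.48 with SE 0.14 (edgeR adjusted p = 0.144), and it was 0.59 on side A and 0.51 on side B. With the term for the side, where 5.87% of all genes were called higher and 3.22% lower, 3 members were called higher and 1 lower. BACH2 (edgeR adjusted p = 0.0291) was among the higher ones.

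PAX5, the factor that fixes B cell identity, had 137, 67.3 and 67.0 CPM in IRF4OE replicates 1, 2 and 3, against 101, 142 and 145 CPM in Ctrl replicates 1, 2 and 3. The groups overlapped, and the low Ctrl library was the one that shares a side with IRF4OE replicates 2 and 3. EBF1, which works with PAX5, was at 37.6 ± 9.30 CPM in IRF4OE and 48.6 ± 5.05 CPM in Ctrl (SD, n = 3 each). Log2 fold changes were -0.52 for PAX5, -0.37 for EBF1, -0.23 for BCL11A, a repressor needed in early B cells, and -0.14 for FOXP1, a forkhead factor (edgeR adjusted p = 0.355, 0.301, 0.543 and 0.593). MYBL1, a MYB-family factor of dividing germinal centre cells, had -0.18. Each of these 5 had a difference of larger size between the sides than between the groups.

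MEF2B and MEF2C are paralogous factors, and MEF2B activates BCL6. They differed in how they varied. MEF2C had 98.4, 99.8 and 97.1 CPM in IRF4OE replicates 1, 2 and 3, against 102, 96.5 and 99.3 CPM in Ctrl replicates 1, 2 and 3, a log2 fold change of -0.01 with a 95% interval of -0.20 to 0.18. MEF2B was at 69.4 ± 26.5 CPM in IRF4OE and 94.1 ± 26.2 CPM in Ctrl (SD, n = 3 each), with a log2 fold change of -0.44 (95% interval -1.17 to 0.30). Its value is uncertain, because the table holds a read-through gene, BORCS8-MEF2B, with nearly the same counts as MEF2B itself (72.4 CPM in IRF4OE and 97.0 CPM in Ctrl on average). The upstream gene BORCS8 was at 17.1 CPM in IRF4OE and 16.7 CPM in Ctrl on average.

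LMO2 and HHEX, transcriptional regulators of the germinal centre, could not be tested. LMO2 had 2, 7 and 4 counts in IRF4OE replicates 1, 2 and 3, against 5, 3 and 6 in Ctrl replicates 1, 2 and 3. HHEX had 0 counts in all libraries, which allows a level of up to 0.0251 CPM in IRF4OE and 0.0290 CPM in Ctrl (3 counts over a group, counting error only).

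The E proteins TCF3 and TCF4 drive B cell genes from E-box sites, and ID3 restrains them, a circuit often mutated in Burkitt's lymphoma. TCF4 had 169, 171 and 172 CPM in IRF4OE replicates 1, 2 and 3, against 155, 145 and 145 CPM in Ctrl replicates 1, 2 and 3. The groups did not overlap, but the log2 fold change was 0.20 with SE 0.08 and did not pass (edgeR adjusted p = 0.233). TCF3 was at 528 ± 67.8 CPM in IRF4OE and 603 ± 74.1 CPM in Ctrl, and ID3 at 52.4 ± 5.08 CPM in IRF4OE and 51.0 ± 3.15 CPM in Ctrl (SD, n = 3 each). Log2 fold changes of these were -0.19 (95% interval -0.51 to 0.13) and 0.04 (-0.21 to 0.29).

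CCND3, the D-type cyclin of germinal centre division, had 235, 251 and 229.9 CPM in IRF4OE replicates 1, 2 and 3, against 228, 248 and 236 CPM in Ctrl replicates 1, 2 and 3. Its log2 fold change was 0.01 with a 95% interval of -0.19 to 0.21. GNA13 encodes the G protein that, through the exchange factor ARHGEF1, holds B cells within the germinal centre. It had 396, 366 and 367 CPM in IRF4OE replicates 1, 2 and 3, against 480.5, 424 and 446 CPM in Ctrl replicates 1, 2 and 3, with no overlap. The log2 fold change of -0.26 (95% interval -0.47 to -0.05) did not pass after adjustment (edgeR adjusted p = 0.188). It was -0.39 on side A and -0.14 on side B, and the axis held 5.62% of the within-group variance of GNA13. The axis held 88.3% of that of ARHGEF1, which was at 35.4 ± 9.85 CPM in IRF4OE and 45.9 ± 10.7 CPM in Ctrl (SD, n = 3 each; log2 fold change -0.37 at an edgeR adjusted p = 0.388).

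**Figure D2:**
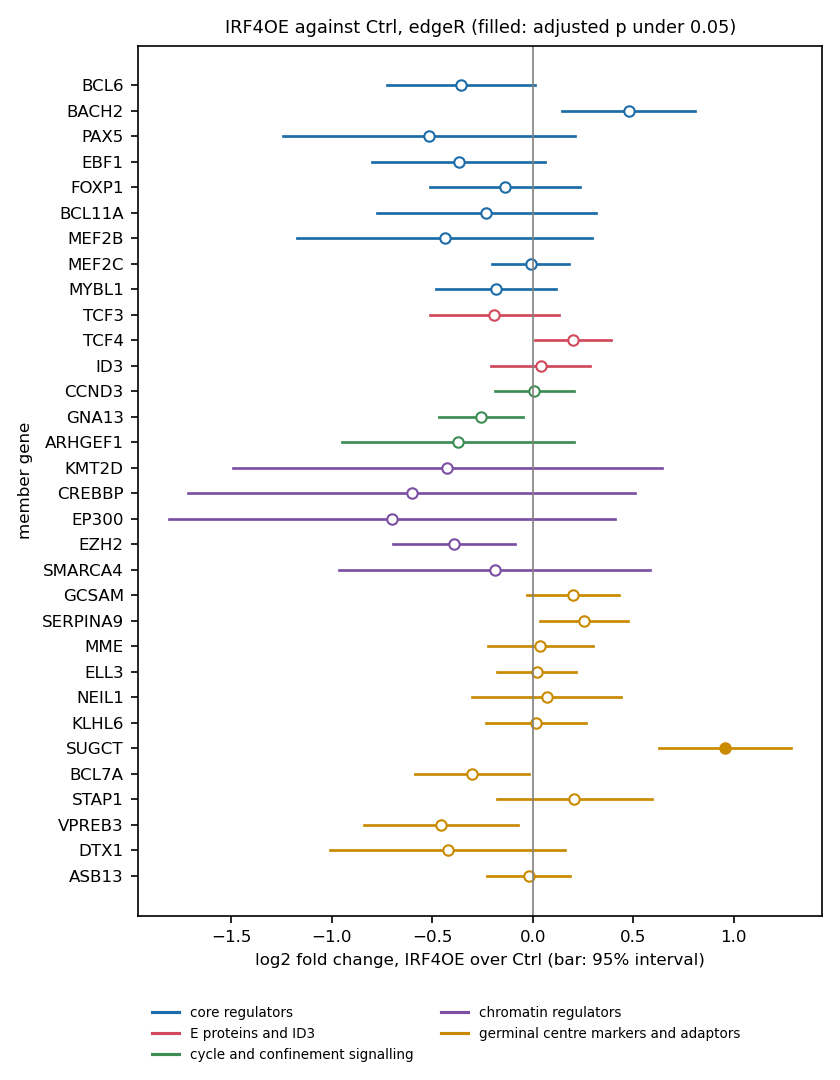
Log2 fold change, IRF4OE over Ctrl, of each of the 32 tested members by edgeR, with its 95% interval as a bar and the colour giving its role. The filled point, SUGCT, is the one with an adjusted p under 0.05. Intervals are wide for the chromatin regulators other than EZH2 (EP300 -0.70, from -1.81 to 0.41) and narrow for genes such as MEF2C and CCND3.

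The 5 chromatin regulators all had negative estimates, with a median log2 fold change of -0.43, and 4 of them, all but EZH2, had the largest differences between library sides of all tested members. EP300 and CREBBP, paralogous histone acetyltransferases, oppose BCL6 at its targets. EP300 had 85.7, 26.2 and 33.4 CPM in IRF4OE replicates 1, 2 and 3, against 50.9, 87.9 and 97.0 CPM in Ctrl replicates 1, 2 and 3. CREBBP had 74.1, 23.4 and 27.7 CPM in IRF4OE replicates 1, 2 and 3, against 40.9, 70.4 and 79.0 CPM in Ctrl replicates 1, 2 and 3. In both genes IRF4OE replicate 1 was near the high Ctrl libraries, and IRF4OE replicates 2 and 3 were below every Ctrl library. Log2 fold changes were -0.70 for EP300 and -0.60 for CREBBP (SE 0.47 each, edgeR adjusted p = 0.398 and 0.450). Between the sides of the axis, A minus B, they differed by -1.20 and -1.20 on the log2 scale.

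KMT2D, a histone H3 lysine 4 methyltransferase, had a difference between sides of -1.19 and between groups of -0.43 (95% interval -1.49 to 0.64). SMARCA4, the ATPase of the SWI/SNF remodelling complex, had 781, 369 and 413 CPM in IRF4OE replicates 1, 2 and 3, against 415, 681 and 687 CPM in Ctrl replicates 1, 2 and 3. The groups overlapped, and its log2 fold change of -0.19 was 0.05 with the term for the side. EZH2, the histone H3 lysine 27 methyltransferase that BCL6 works with, differed less between the sides (-0.21). It had 152, 115 and 116 CPM in IRF4OE replicates 1, 2 and 3, against 167, 166 and 171 CPM in Ctrl replicates 1, 2 and 3. All IRF4OE libraries were below the Ctrl libraries, with the 3 Ctrl libraries close together. The log2 fold change was -0.39 with SE 0.13 (edgeR adjusted p = 0.178), at -0.53 on side A and -0.14 on side B.

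**Figure D3:**
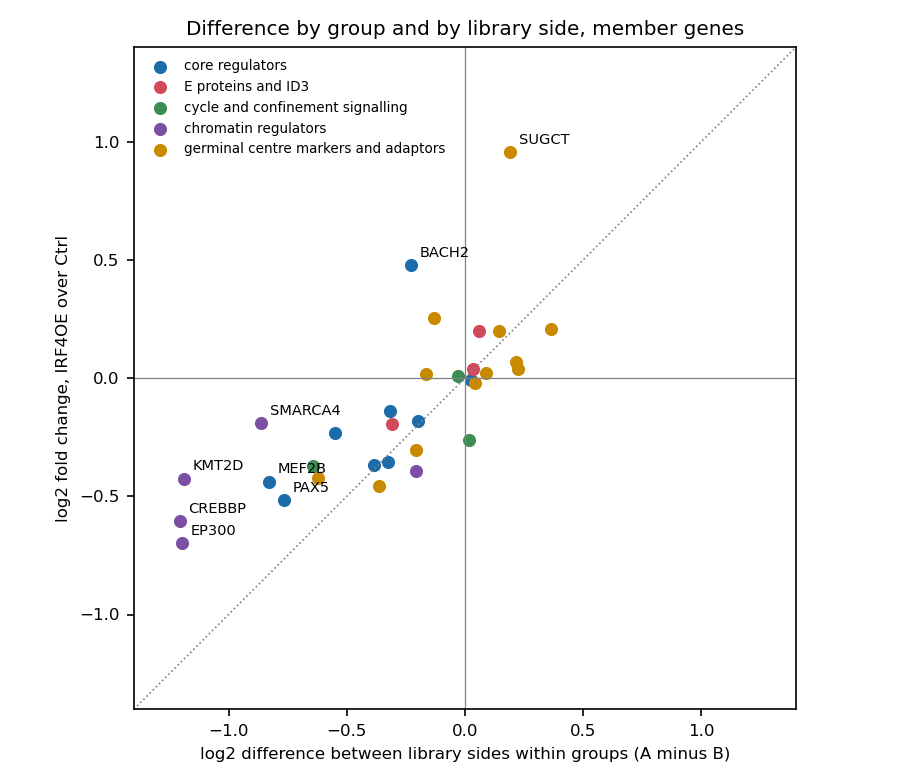
Log2 fold change between groups (vertical, IRF4OE over Ctrl) against the log2 difference between library sides within groups (horizontal, A minus B) for the 32 tested members, coloured by role. On the dotted line both are equal. SUGCT (0.96 between groups, 0.19 between sides) and BACH2 (0.48, -0.23) lie apart from the members that spread to the left, where KMT2D, CREBBP and EP300 differ by about -1.2 between sides.

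The markers and adaptors split in several directions. SERPINA9, a protease inhibitor confined largely to germinal centre B cells, had 91.3, 83.4 and 84.4 CPM in IRF4OE replicates 1, 2 and 3, against 67.9, 77.1 and 72.5 CPM in Ctrl replicates 1, 2 and 3. GCSAM, an adaptor that limits cell motility, had 190.4, 218 and 226 CPM in IRF4OE replicates 1, 2 and 3, against 190.2, 184 and 179 CPM in Ctrl replicates 1, 2 and 3. Neither gene overlapped between groups, GCSAM by a narrow margin, and neither passed: the log2 fold changes were 0.25 and 0.20 (edgeR adjusted p = 0.212 and 0.292). With the term for the side, SERPINA9 was called higher (edgeR adjusted p = 0.0327).

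VPREB3, a chaperone-like partner of the antibody heavy chain, had 34.1, 25.7 and 23.5 CPM in IRF4OE replicates 1, 2 and 3, against 33.7, 40.8 and 40.0 CPM in Ctrl replicates 1, 2 and 3. Its promoter holds the octamer, like that of SERPINA9, and its estimate had the other sign. The log2 fold change was -0.46 with SE 0.16 (edgeR adjusted p = 0.200), and it was the member called lower with the term for the side (edgeR adjusted p = 0.0449). BCL7A, a subunit of the SWI/SNF complex, was at 132 ± 19.0 CPM in IRF4OE and 162 ± 4.86 CPM in Ctrl (SD, n = 3 each) with no overlap, a log2 fold change of -0.30 (edgeR adjusted p = 0.233). DTX1, a ubiquitin ligase of the Notch pathway, had 335, 198 and 189 CPM in IRF4OE replicates 1, 2 and 3, against 259, 351 and 358 CPM in Ctrl replicates 1, 2 and 3. Its levels split by library side, and its log2 fold change was -0.42 (edgeR adjusted p = 0.349). STAP1, an adaptor of B cell receptor signalling, ran the other way along the axis, at 63.9, 89.1 and 95.4 CPM in IRF4OE replicates 1, 2 and 3, against 78.4, 69.8 and 67.1 CPM in Ctrl replicates 1, 2 and 3 (log2 fold change 0.21, edgeR adjusted p = 0.456).

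The remaining markers were near 0 in log2 fold change. MME, the surface peptidase CD10, had 441, 507 and 515 CPM in IRF4OE replicates 1, 2 and 3, against 528, 440.2 and 458 CPM in Ctrl replicates 1, 2 and 3 (log2 fold change 0.04, 95% interval -0.22 to 0.30). ELL3, an elongation factor gene, had 0.02 (-0.18 to 0.22), KLHL6, a ubiquitin ligase adaptor, 0.02 (-0.23 to 0.26), and ASB13, a marker of the germinal centre class of lymphoma, -0.02 (-0.23 to 0.19). NEIL1, a DNA glycosylase gene, had 0.07 with a wider interval (-0.30 to 0.44) and 6.34 to 9.01 CPM in IRF4OE and 7.25 to 8.03 CPM in Ctrl. These intervals bound the changes and do not show that they were 0. Per kilobase of the deposited gene width, TCF3 was the highest tested member (107 RPKM in IRF4OE, 122 in Ctrl) and BACH2 the lowest (0.994 RPKM in IRF4OE, 0.715 in Ctrl).

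Leaving out IRF4OE replicate 1 changed which members were called. Without it, 5 members were called higher and 18 lower by edgeR, against 19.9% of all genes higher and 25.1% lower in that fit. The remaining IRF4OE libraries then both lie on side A, with Ctrl replicate 1 and opposite Ctrl replicates 2 and 3, so the group difference of that fit is partly one between sides. Within side A, where Ctrl is a single library, the log2 differences were -0.43 for BCL6, -0.53 for EZH2, -0.78 for EP300 and -0.24 for MEF2B, against -0.55, -0.55, -1.41 and -0.81 in that fit. All 5 chromatin regulators and 7 of the 9 tested core regulators were among the genes called lower. Without any other single library, 0 members were called in either direction. In those fits 123 to 159 genes were called of 12172 to 12306 tested, so the 0 does not set the members apart.

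Other genes of the germinal centre, in a list of 28 of which 27 were tested, included 2 that rose. Of all genes tested, edgeR called 2.98% higher and 0.182% lower. TNFRSF14, a receptor often lost in germinal centre lymphoma, was at 14.0 ± 1.18 CPM in IRF4OE and 6.89 ± 0.926 CPM in Ctrl (SD, n = 3 each; log2 fold change 1.03 with SE 0.14; edgeR adjusted p = 0.0129). The chemokine receptor genes CXCR5 and CXCR4, which place cells in the follicle and the dark zone, did not overlap between groups but did not pass (log2 fold changes 0.60 and 0.40). For CXCR4 the edgeR adjusted p was 0.0821, and DESeq2 and the side term called it higher (adjusted p = 0.0112 and 0.02). For CXCR5 the edgeR adjusted p lay just above the threshold of 0.05, and DESeq2, limma-voom and the side term called it higher (adjusted p = 0.00292, 0.0464 and 0.00781). Of the list, DESeq2 called 4 and limma-voom 3 genes higher. The list's median was -0.13, and 0 genes were called lower, with 4 at an unadjusted p under 0.05, 1 by DESeq2 and 0 by limma-voom. TNFRSF14 passed in 3 of the 6 fits that each left out 1 library.

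The 11 tested corepressors and partners of BCL6 gave 0 calls by edgeR, DESeq2 or limma-voom, with a median log2 fold change of -0.24. Over all genes tested, edgeR called 2.98% higher and 0.182% lower, DESeq2 4.78% and 1.45%, and limma-voom 2.81% and 0.182%. At these shares, 0 calls among 11 genes do not set the list apart. At an unadjusted p under 0.05, 1 was lower and 0 higher, against 8.18% and 11.3% of all genes. HDAC1, a histone deacetylase, had 415, 462 and 422 CPM in IRF4OE replicates 1, 2 and 3, against 541, 503 and 492 CPM in Ctrl replicates 1, 2 and 3. It did not overlap between groups (log2 fold change -0.24, edgeR adjusted p = 0.209) and was called lower with the term for the side (edgeR adjusted p = 0.0402). ZBTB17, the MIZ1 partner of BCL6, had 0.23, MTA3 -0.41 and the corepressor NCOR1 -0.66.

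Several genes that BCL6 is known to repress rose. Of 15 tested, with IRF4 left out, 7 rose and 0 fell by edgeR, with a median log2 fold change of 0.92. Over all genes tested, edgeR called 2.98% higher and 0.182% lower. The list was chosen with earlier results of these data known, so its counts describe the list and are no test of it. CXCL10, a chemokine gene, had 39.6, 60.6 and 63.6 CPM in IRF4OE replicates 1, 2 and 3, against 6.62, 5.99 and 5.85 CPM in Ctrl replicates 1, 2 and 3 (log2 fold change 3.15 with SE 0.20; edgeR adjusted p = 8.94e-04). It is also known as an interferon-induced gene. BCL2, the inhibitor of apoptosis, was 2.02-fold higher (edgeR adjusted p = 0.00438). Rises were also called for CD69, an early activation marker (2.39-fold), GPR183, a receptor for migration out of the follicle (2.03-fold), CD80, a costimulatory ligand (1.93-fold) and CDKN1A, the p21 cell cycle inhibitor (1.41-fold). CXCL10 and BCL2 passed without each library in turn, while CD69, GPR183, CD80 and CDKN1A passed only without IRF4OE replicate 1. At an unadjusted p under 0.05, 1 gene of the list was lower, PRDM1, against 8.18% of all genes. DESeq2 called PRDM1 lower and limma-voom did not.

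Activation genes of the light zone, where B cells receive T cell help, included 7 that rose of 13 tested (median log2 fold change 0.59). This list too was chosen with earlier results of these data known. There were 0 lower by edgeR, DESeq2, limma-voom or an unadjusted p under 0.05. By edgeR, 2.98% of all genes tested were called higher and 0.182% lower. The lowest log2 fold change of the list was -0.90. All IRF4OE libraries lay above all Ctrl libraries in 11 of the 13 genes and below them in 1. Of all genes tested, 13.5% lay above and 11.9% below in this way. SLAMF1, a surface receptor gene, was at 9.54 ± 0.593 CPM in IRF4OE and 2.31 ± 0.573 CPM in Ctrl, and CCR7, which guides cells to T cell zones, at 66.5 ± 14.4 CPM in IRF4OE and 19.5 ± 2.13 CPM in Ctrl (SD, n = 3 each). They were 4.09-fold and 3.42-fold higher (edgeR adjusted p = 0.00350 and 0.00375). The others were the NF-kB-induced genes BCL2A1 (3.07-fold), CD83 (1.83-fold) and TRAF1 (1.81-fold), BATF, a factor of class switching (2.00-fold), and CD40, the receptor for T cell help (1.41-fold). SLAMF1 and CCR7 passed without each library in turn. In the fit without IRF4OE replicate 1 there were 10 higher and 1 lower, against 19.9% and 25.1% of all genes. In the fits without another library there were 2 to 5 higher, against 120 to 156 of the 12172 to 12306 genes tested in those fits.

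Plasma cell genes, also listed with earlier results of these data known, gave 3 rises among 15 tested and a median log2 fold change of 0.22. The edgeR calls over all genes tested were 2.98% higher and 0.182% lower. CD28, a costimulatory receptor gene, had 50, 72 and 83 counts in IRF4OE replicates 1, 2 and 3 and 0 counts in every Ctrl library, and was at least 59.1-fold higher when the Ctrl group is set at 3 counts in all. SLAMF7, a surface marker of plasma cells, was 4.31-fold and the kinase gene PIM2 1.63-fold higher (edgeR adjusted p = 0.0136 and 0.0148). PRDM1, the repressor that opposes BCL6 and also a member of the list of its targets, had 1.45, 1.30 and 1.08 CPM in IRF4OE replicates 1, 2 and 3, against 2.17, 2.08 and 2.16 CPM in Ctrl replicates 1, 2 and 3. All IRF4OE libraries were below the Ctrl libraries, and the log2 fold change of -0.75 (SE 0.17) missed the threshold by edgeR (adjusted p = 0.0700), while DESeq2 called it lower (adjusted p = 0.0340), as did the fit with a term for the side (edgeR adjusted p = 0.0455). The 0 lower calls of this list by edgeR stand beside 1 by DESeq2, 0 by limma-voom and 1 at an unadjusted p under 0.05. CD28 passed without each library in turn. With 0 counts in Ctrl, it entered the test only through IRF4OE and could only be called higher, so these passes add no support. SLAMF7 passed in 3 of the 6 fits that each left out 1 library and PIM2 in 1, that without IRF4OE replicate 1.

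**Figure D4:**
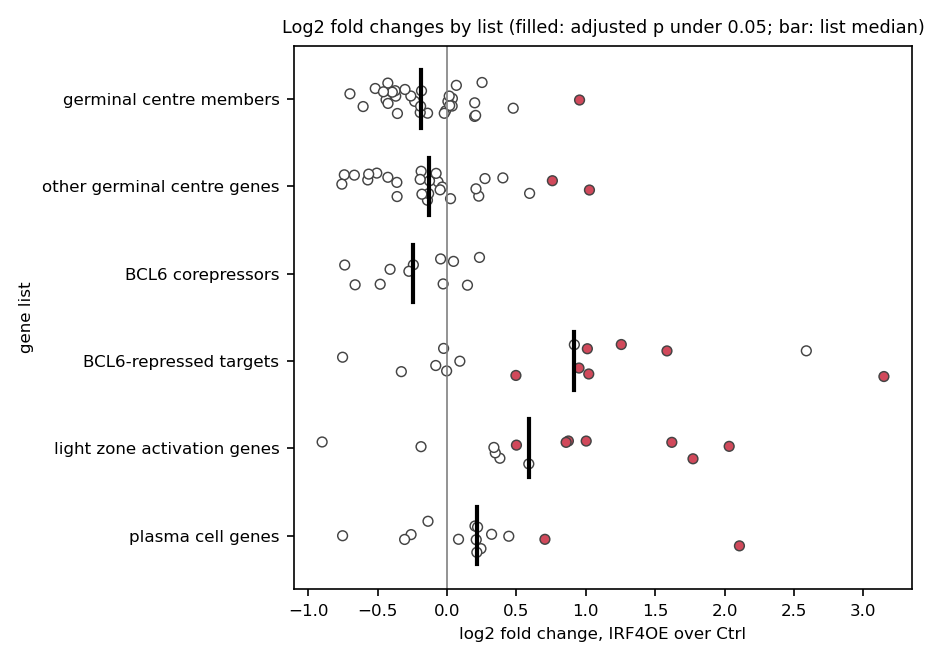
Log2 fold changes, IRF4OE over Ctrl, of the tested genes in the member list and 5 related lists (1 point per gene, spread vertically for legibility; filled, edgeR adjusted p under 0.05; vertical bar, list median). IRF4 and CD28 (0 counts in Ctrl) are not drawn. Medians run from -0.24 for BCL6 corepressors to 0.92 for BCL6-repressed targets, beside -0.19 for the members.

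The balance between BCL6 and PRDM1 was taken within each library as the log2 ratio of their CPM, which needs no scaling between libraries. It was 7.49, 7.23 and 7.36 in IRF4OE replicates 1, 2 and 3, against 6.86, 7.03 and 7.06 in Ctrl replicates 1, 2 and 3. The groups did not overlap, and the ratio was higher in IRF4OE although both genes had negative estimates. The difference of means was 0.38 (7.36 ± 0.128 in IRF4OE and 6.98 ± 0.108 in Ctrl, SD, n = 3 each), with an exact two-sided permutation p of 0.1, the smallest that 3 against 3 libraries can give. It was 0.31 to 0.44 without single libraries. The exact two-sided permutation p was then 0.2 without Ctrl replicate 1 and 0.1 without each other library. PRDM1 rests on 50, 48 and 52 counts in the IRF4OE and 87, 56 and 79 in the Ctrl libraries. Each ratio therefore carries counting error that an SD over 3 libraries may understate.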

How the data were processed

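RNA-seq counts per gene were analysed for 3 IRF4OE and 3 Ctrl libraries of Raji cells, prepared with a stranded poly(A) kit per the labels' protocols. The deposited table holds raw counts per Entrez gene, 1 column per library, as its whole-number values and unequal totals show, and 1 width per gene in bases. The Ctrl columns are called WT there, while per the labels they are the empty vector. Per the submitters' processing notes the builds were mm9 and hg19, and the aligner and counter are not given in the sources used here. Of 23459 rows, 23308 matched a symbol in the GRCh38.p14 gene table and 151 did not. No coordinates of the counted genes are given.

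Members and lists were chosen with earlier results of these data known. The test was the two-sided quasi-likelihood F-test of edgeR 4.0.16 in R 4.3.3, after TMM scaling and filterByExpr, with group as the only term and over 12079 genes, called at a Benjamini-Hochberg adjusted p under 0.05. Standard errors came from the F statistic and 95% intervals from the t distribution. Log2 CPM for the library axis used a prior count of 0.5, and RPKM the deposited widths. The axis is the first principal component around the group means. All members are named; of each other list, every called gene and, below 4 calls, the uncalled ones of smallest p up to 4. Some genes that this rule names are left out of the text. Where a fold is given against 0 counts, the floor is 3 counts over the group. Scripts were tested on simulated data.

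Alternatives were library sizes alone, median-ratio size factors, no filter, at least 1 CPM in 3 libraries, DESeq2 1.42.0 on the filtered genes, limma-voom (limma 3.58.1), the replicate number as a block, a term for the side and leaving out each library. Replicates of a group differed by more than sampling noise (chi-square per gene 6.49 to 185). IRF4OE replicate 1 stood apart, at 170 and 185 against IRF4OE replicates 2 and 3, which gave 7.59 between them. Ctrl replicate 1 gave 34.5 and 53.5 against Ctrl replicates 2 and 3, which gave 6.49 between them. Promoters came from RefSeq, and the last 50 bases of 54 of the 69 were found in an annotated transcript of the same gene. A comparison of paralogous proteins was planned and not analysed here. Figures used matplotlib 3.10.9.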

Additional observations from a re-analysis of the deposited data

How the results depend on the processing

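Over all genes, 382 were called, against 752 with DESeq2, 1098 with the term for the side, 3 with the replicate block and 123 to 5507 without single libraries. Called members numbered 1, against 4 with the side term, 0 with the block and 0 to 23 without single libraries. For the other germinal centre genes it was 2, against 4 with library sizes alone, 5 with DESeq2, 8 with the side term, 0 with the block and 0 to 18 without single libraries. Corepressors had 0 calls, 1 with the side term and 0 to 6 without single libraries. BCL6-repressed targets had 7, light zone genes 7 and plasma cell genes 3 calls, with 0 in each under the block, 5 plasma cell genes with the side term, and 3 to 11, 2 to 11 and 1 to 11 without single libraries. The BCL6 to PRDM1 ratio kept its direction, at 0.31 to 0.44. High ends of the counts were all without IRF4OE replicate 1, where group and axis are partly mixed. That fit also leaves out the library that differed most from its replicates. The cause of the shifts was not tested. Same-numbered samples deviated in opposite directions (correlations -0.614, -0.198 and -0.422). The axis holds 70.7% of the variance behind these correlations, so they cannot tell whether same-numbered libraries share a source. With the replicate block the log2 fold change of SUGCT was 0.95 (edgeR adjusted p = 0.199).

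Reversed signs were limited to members near 0 and SMARCA4. CCND3 was at -0.0050 with median-ratio size factors, -0.0097 without a filter and -0.0049 with DESeq2. MEF2C was at 0.085 and ASB13 at 0.076 with library sizes alone, which moved the median of all genes to 0.10, and MEF2C was at 0.000029 with the 1 CPM filter. With the side term SMARCA4 was at 0.053, MME at -0.036, ELL3 at -0.0093 and NEIL1 at -0.0083. Without single libraries KLHL6 ran from -0.085 to 0.071, ASB13 from -0.066 to 0.0032, ID3 from -0.026 to 0.098, CCND3 from -0.029 to 0.038, SMARCA4 from -0.62 to 0.023, MEF2C from -0.035 to 0.0055, MME from -0.023 to 0.11, NEIL1 from -0.034 to 0.20 and ELL3 from -0.0095 to 0.056. With 3 libraries a group, wide intervals, such as those of the chromatin regulators other than EZH2, limit what can be told. LMO2 and HHEX had too few counts to be tested, and SUGCT, the member called, rests on only 57 to 216 counts per library.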
